A study of Mus musculus with 14 samples.

Results

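The 10 genes described here are the DNA-repair enzymes Parp1, Parp2 and Parp3, the mono-ADP-ribosyltransferases Parp8, Parp10, Parp12 and Parp14, the linked pair Parp9 and Dtx3l, and Zc3hav1, also known as ZAP. They were chosen by name and matched by Ensembl identifier without its version, with Parp1 and Parp2 as housekeeping relatives. All 10 were found among the 34866 gene identifiers of each of 3 deposited count tables, and all 10 passed the filter on low counts in each table. RNA was sequenced from 3 mouse tumour lines after treatment with an agonist of RIG-I or with a control agonist. CT26 is a colorectal carcinoma line of BALB/c mice, E0771 a mammary cancer line of C57BL/6 mice and MC38 a colon adenocarcinoma line of C57BL6 mice. Each well received 100000 cells and 0.5 ug/ml of either agonist for 24 h, with CT26 and E0771 grown in RPMI and MC38 in DMEM. The 14 libraries comprised 3 for each agonist in CT26, and 2 for each in E0771 and MC38. Each tumour type is 1 cell line, no allele or gene deletion is named in the labels, and untreated cells were not analysed here, so a change is always relative to the control agonist. The labels do not say whether replicates were separate cultures, so p-values measure only how these libraries vary, and that variation may be technical.

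ADP-ribosyltransferases move ADP-ribose from NAD+ onto proteins or nucleic acids. Parp1 and Parp2 build long chains of it at DNA breaks, and most other family members attach single units. RIG-I is a cytosolic sensor of viral RNA whose activation leads to secretion of type I interferon, and several members of this family, together with Dtx3l and Zc3hav1, are known as interferon-stimulated genes. Parp9 has macrodomains that bind ADP-ribose and works in a complex with the ubiquitin ligase Dtx3l. Parp14 is a large macrodomain protein with roles in STAT signalling and in antiviral defence, Parp10 and Parp12 restrict replication of several RNA viruses, and Zc3hav1 is a catalytically inactive family member that binds CpG-rich RNA and directs its decay.

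Library totals ran from 32826742 to 40564102 counts for CT26, from 12413347 to 13399247 for E0771 and from 12347361 to 18964563 for MC38. The response to the agonist was present in each line. Ifnb1, the gene of interferon beta, rose by 9.58, 8.11 and 5.50 on the log2 scale in CT26, E0771 and MC38. Its mean control level was below the level of 3 counts per library in E0771 and MC38, and above that level in CT26. The sizes of these rises therefore rest on few control counts and are not compared between lines. Replicates differed most in E0771, with a biological coefficient of variation of 0.202, against 0.102 in CT26 and 0.0304 in MC38. Of 7 leukocyte markers, 0 reached 1 CPM (counts-per-million) in any line, and their summed level was at most 1.15 CPM. Few epithelial markers were present: 2 of 7 reached 1 CPM in CT26, 1 of 7 in E0771 and 0 of 7 in MC38, with Epcam at 0 counts in CT26 and MC38. The epithelial marker present in E0771 was Krt8, at a mean of 250 CPM in the controls. None of the 5 intestinal markers reached 1 CPM in CT26 or MC38, and 1 of 6 mammary markers did in E0771, where Krt5 and Csn2 were at 0. In CT26 and in MC38, 2 of the 6 mammary markers did. Among these Esr1 had control means of 14.1 CPM in CT26, 1.25 in E0771 and 7.19 in MC38. Of 4 endothelial markers, 1 reached 1 CPM in CT26, 1 in E0771 and 2 in MC38. All 5 mesenchymal markers reached that level in CT26 and MC38 and 3 of 5 in E0771. Their summed level was lower with RIG-I agonist in each line, at 3940 to 4310 CPM against 4930 to 5410 CPM in CT26, 2120 to 2340 against 3000 to 3180 in E0771 and 2160 to 2200 against 2850 to 2920 in MC38, and their part in the results was not tested.

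Parp14, Dtx3l, Parp9, Parp12 and Parp10 rose with RIG-I agonist in each of the 3 lines. In bulk RNA, more transcript per cell and more responding cells cannot be told apart. Zc3hav1, Parp3 and Parp8 rose less, with calls in CT26 and MC38. Parp2 was called in no line, and Parp1 fell slightly in CT26 and MC38. At an adjusted p under 0.05 (edgeR, Benjamini-Hochberg over all genes tested), 8 members were higher and 1 lower in CT26, where 38.4% of all genes tested were called. In E0771, 5 were higher and 0 lower, against a background of 1.56%. At an unadjusted p under 0.05 the E0771 counts were 8 and 0, by DESeq2 they were 7 and 0, and with the spread shared by all 14 libraries 8 were higher. The 1.56% does not apply to these counts. Over all genes DESeq2 called 418 of 11728 in E0771, and the shared spread called 1588 of 14657. With edgeR and RLE size factors, 1238 of 11728 genes had an unadjusted p under 0.05 there. In MC38, 8 were higher and 1 lower, against 35.8%. In the upward direction the backgrounds were 19.8%, 1.53% and 18.9%, and in the downward direction 18.6%, 0.0256% and 16.9%. The median change of the 10 members was 1.26 on the log2 scale in CT26, was 1.82 in E0771 and was 0.79 in MC38, while the median over all genes tested was 0.00061, -0.0075 and -0.0046. The number of calls was not compared between lines, since replicate spread differed between them.

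**Figure D1:**
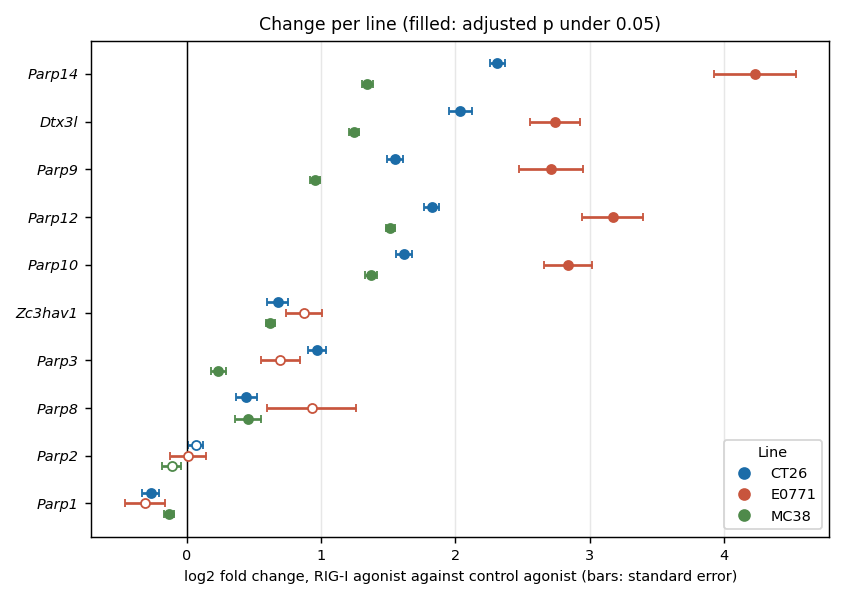
Log2 fold change of the 10 genes with RIG-I agonist against control agonist in CT26, E0771 and MC38, from edgeR fits of 6, 4 and 4 libraries, with bars for the standard error and filled points for an adjusted p under 0.05. Parp14 in E0771, at 4.23, lies farthest to the right, and Parp2 lies near 0 in each line.

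Parp14, Dtx3l and Parp9 stand side by side on chromosome 16, with no other protein-coding gene between them in the GENCODE M21 annotation of GRCm38. Parp14 spans chr16:35832874-35871544 on the minus strand and ends 54966 bases before Dtx3l. Dtx3l (chr16:35926511-35939151, minus strand) and Parp9 (chr16:35938470-35972605, plus strand) run away from each other and overlap at their 5′ ends by 682 bases, of which 458 are exonic in both. Libraries were stranded per the labels, but whether counting used strand is not given in the sources used here, so reads from the shared exons may have been divided between Dtx3l and Parp9. Parp12 (chr6:39086410-39118349, minus strand) and Zc3hav1 (chr6:38305286-38354603, minus strand) share chromosome 6 and lie 731806 bases apart. The other members are on 5 further chromosomes: Parp1 at chr1:180568924-180601254, Parp2 at chr14:50807841-50821301, Parp3 at chr9:106470322-106476949, Parp8 at chr13:116854820-117025537 and Parp10 at chr15:76231174-76243441. Parp3 shares 20 exonic bases with Rrp9 on the opposite strand, and Parp10 shares 205 with Plec on the same strand.

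Promoter windows from RefSeq (GRCm38.p6, 250 bases before to 50 after each gene's RefSeq start) matched 7 of the 10 members, without Parp9, Parp10 and Parp14. For Dtx3l and Parp2 the RefSeq start lies inside the GENCODE span given above, so offsets from the GENCODE start differ. The windows of Dtx3l and Parp12, which rose in each line, and of Parp2, which was called in none, are shown here 5′ to 3′ on the gene's own strand, with capitals for matches to the interferon-regulatory-factor core AANNGAAA on either strand.
Dtx3l, chr16:35938978-35939277, minus strand: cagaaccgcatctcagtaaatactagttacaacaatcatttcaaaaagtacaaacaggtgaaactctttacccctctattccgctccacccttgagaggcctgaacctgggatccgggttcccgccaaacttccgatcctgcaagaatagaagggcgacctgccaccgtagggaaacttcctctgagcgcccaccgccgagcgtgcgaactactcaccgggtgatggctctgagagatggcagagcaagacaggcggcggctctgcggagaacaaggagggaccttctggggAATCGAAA
Parp12, chr6:39118300-39118599, minus strand: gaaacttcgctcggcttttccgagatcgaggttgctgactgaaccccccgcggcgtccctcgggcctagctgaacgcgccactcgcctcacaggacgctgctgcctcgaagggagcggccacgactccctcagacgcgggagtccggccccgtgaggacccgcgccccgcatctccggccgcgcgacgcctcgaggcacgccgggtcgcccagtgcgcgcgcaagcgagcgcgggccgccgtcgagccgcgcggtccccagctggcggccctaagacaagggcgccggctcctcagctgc
Parp2, chr14:50807666-50807965, plus strand: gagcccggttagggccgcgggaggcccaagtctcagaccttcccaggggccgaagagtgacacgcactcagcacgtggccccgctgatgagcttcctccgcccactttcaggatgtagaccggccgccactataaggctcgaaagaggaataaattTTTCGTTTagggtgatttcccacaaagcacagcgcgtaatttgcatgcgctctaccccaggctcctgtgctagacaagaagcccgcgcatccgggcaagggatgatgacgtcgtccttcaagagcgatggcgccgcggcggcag
The Dtx3l match, AATCGAAA, starts 42 bases after the gene's RefSeq start. The Parp2 match, which reads TTTCGTTT on the gene's strand, starts 94 bases before the RefSeq start of Parp2. These were the matches in 2 of the 7 windows, and 23.9% of all 32817 windows of that length hold this core. Neither the interferon-stimulated response element core, which is TTTC, any 2 bases and TTTC again, present in 3.43% of all windows, nor the STAT site core TTCNNNGAA, present in 8.29%, was found on either strand in any of the 7. The AANNGAAA core was searched after the other two had given no match. A match is a description of letters, and its absence says only that these letters are not in this window. The Dtx3l window lies partly in the stretch that Dtx3l shares with Parp9. GC content was 73.7% in the Parp12 window with 46 CpG dinucleotides, 54.3% with 17 in Dtx3l and 60% with 25 in Parp2, and the median over all windows was 52.7% with 7.

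Parp14 had the largest change of the 10 members in CT26 and E0771. Its level in the CT26 control libraries was 53.3, 48.8 and 53.5 CPM, and with RIG-I agonist it was 259.9, 249.9 and 262.9 CPM. In E0771 the control libraries held 20.1 and 11.9 CPM and the RIG-I libraries 269.1 and 331.8 CPM. The MC38 controls were at 168.8 and 163.9 CPM and the RIG-I libraries at 406.2 and 436.9 CPM. In every line each RIG-I library was above each control library, and the lowest and highest control levels belonged to E0771 and MC38. The change was 2.31 ± 0.06 (log2 fold change ± SE, edgeR adjusted p = 5.86e-13), or 4.97-fold, in CT26. It was 4.23 ± 0.30 (adjusted p = 0.00761), or 18.8-fold, in E0771, and 1.34 ± 0.04 (adjusted p = 1.15e-16), or 2.54-fold, in MC38. Ordered by size of rise, Parp14 was number 266 of 13893 genes in CT26, 107 of 11728 in E0771 and 191 of 12387 in MC38.

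Dtx3l, the ubiquitin ligase that partners Parp9, was at 34.2, 27.9 and 28.1 CPM in the CT26 controls and at 121.3, 116.4 and 132.3 CPM with RIG-I agonist. The E0771 libraries held 28.2 and 23.9 CPM with control agonist and 154.1 and 194.0 CPM with RIG-I agonist. In MC38 the values were 142.5 and 145.6 CPM against 335.3 and 346.2 CPM. The groups did not overlap in any line, and the MC38 controls were higher than the CT26 RIG-I libraries, with CPM scaled within each line. The log2 fold change was 2.04 ± 0.08 in CT26 (adjusted p = 2.71e-10), 2.74 ± 0.19 in E0771 (adjusted p = 0.00669) and 1.24 ± 0.04 in MC38 (adjusted p = 7.98e-17).

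Parp9 gave 83.5, 87.0 and 98.7 CPM in the CT26 controls and 261.1, 264.3 and 262.4 CPM with RIG-I agonist. E0771 controls stood at 43.3 and 28.4 CPM and the RIG-I libraries at 224.1 and 246.8 CPM. MC38 went from 206.0 and 199.3 CPM to 388.1 and 396.2 CPM. All RIG-I libraries were above their controls, and the 3 CT26 RIG-I libraries were nearly equal. The log2 fold change was 1.55 ± 0.06 in CT26 (adjusted p = 1.32e-10), 2.71 ± 0.24 in E0771 (adjusted p = 0.0110) and 0.95 ± 0.04 in MC38 (adjusted p = 3.99e-15).

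Dtx3l and Parp9 did not keep 1 ratio of counts in CT26 and MC38. Dtx3l counts per Parp9 count were 0.41, 0.321 and 0.285 in the CT26 controls and 0.465, 0.44 and 0.504 in the RIG-I libraries. MC38 showed 0.692 and 0.731 against 0.864 and 0.874. In E0771 the ratios of the groups overlapped, at 0.652 and 0.841 with control agonist and 0.687 and 0.786 with RIG-I agonist. Counts are not divided by length here, so the ratio is compared only between libraries, and no test was run on it. Parp14 counts per Parp9 count were higher without overlap in each line, going from between 0.542 and 0.639 to between 0.945 and 1.0 in CT26, from 0.463 and 0.419 to 1.2 and 1.34 in E0771, and from 0.819 and 0.823 to 1.05 and 1.1 in MC38.

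Parp12, a zinc-finger mono-ADP-ribosyltransferase found at the Golgi and in stress granules, was at 118.3, 111.0 and 111.5 CPM in the CT26 controls and 402.7, 399.1 and 403.7 CPM with RIG-I agonist. The E0771 controls were at 69.1 and 46.9 CPM and the RIG-I libraries at 521.2 and 522.7 CPM. In MC38 the level was 184.7 and 188.1 CPM with control agonist and 535.4 and 529.8 CPM with RIG-I agonist. The groups were separate in each line, and the RIG-I libraries of E0771 and MC38 lay close together while their controls did not. The log2 fold change was 1.82 ± 0.06 in CT26 (adjusted p = 1.09e-11), 3.17 ± 0.23 in E0771 (adjusted p = 0.00761) and 1.51 ± 0.03 in MC38 (adjusted p = 8.5e-19). Among the members this was the largest change in MC38.

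Parp10, a mono-ADP-ribosyltransferase with ubiquitin-binding motifs, was at 76.7, 68.0 and 67.1 CPM in the CT26 controls and at 216.5, 216.8 and 216.2 CPM with RIG-I agonist. E0771 gave 29.5 and 22.9 CPM against 196.5 and 178.8 CPM. MC38 gave 60.6 and 59.4 CPM against 153.4 and 156.8 CPM. The groups were separate in each line, and here the MC38 libraries with RIG-I agonist were the lowest of the 3 lines. The change was 1.62 ± 0.06 in CT26 (log2 fold change ± SE, adjusted p = 4.26e-11), 2.84 ± 0.18 in E0771 (adjusted p = 0.00594) and 1.37 ± 0.05 in MC38 (adjusted p = 6.07e-16). Plec, which shares exonic bases with Parp10 and was named for that overlap after its values were seen, fell by 0.31 in CT26 (adjusted p = 0.0208) and by 0.26 in MC38 (adjusted p = 0.000106) and had a change of -0.09 in E0771 (adjusted p = 0.944).

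**Figure D2:**
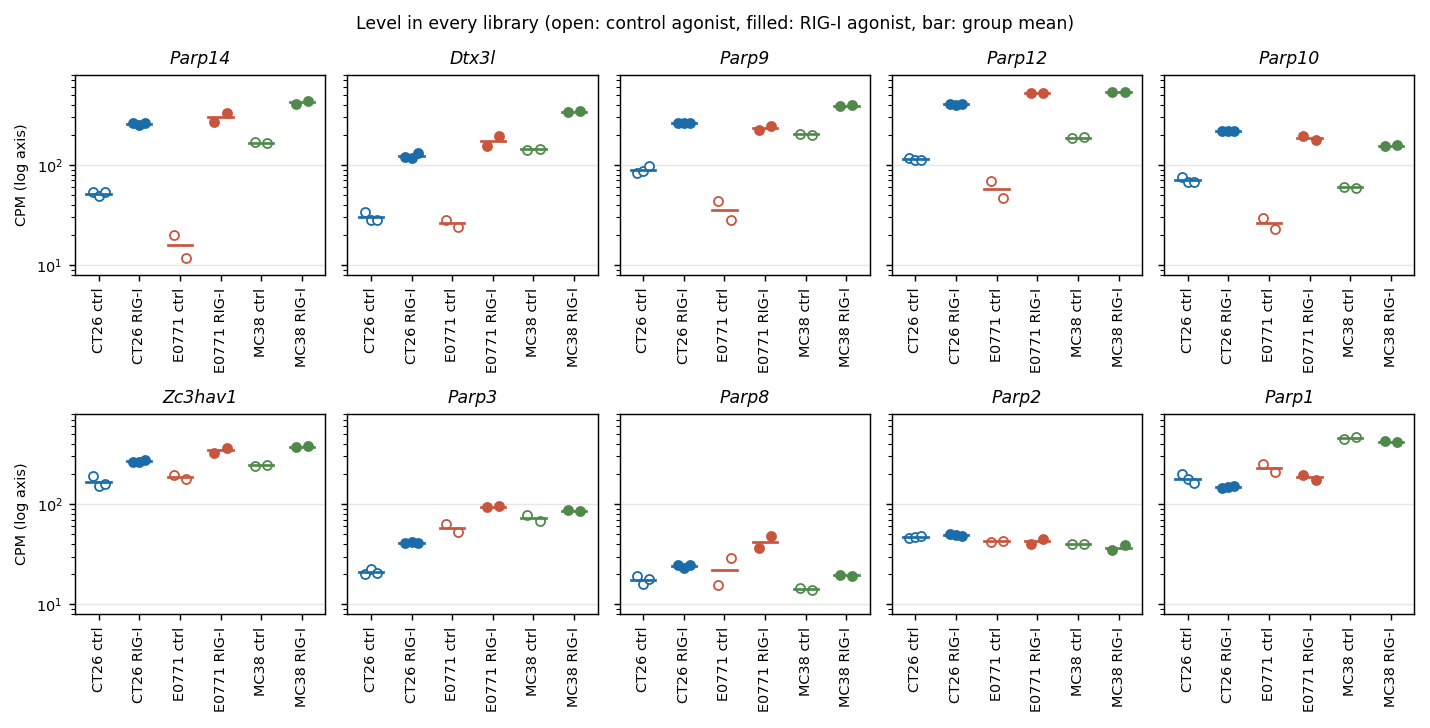
Level of each of the 10 genes in all 14 libraries, in CPM on a log axis, with open circles for control agonist, filled circles for RIG-I agonist and a bar for the group mean. The filled and open circles are separate for every gene and line except Parp2 in E0771.

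Zc3hav1 was abundant before stimulation and rose by less than the 5 genes above in CT26, E0771 and MC38. Its level in the CT26 controls was 193.5, 152.0 and 159.0 CPM, and with RIG-I agonist 263.6, 264.1 and 278.0 CPM. In E0771 it was 196.8 and 180.2 CPM against 327.9 and 362.8 CPM. The MC38 values were 240.7 and 249.0 CPM against 373.4 and 380.0 CPM. The groups were separate in each line, and the mean of the highest line divided by that of the lowest was 1.46 with control agonist and 1.4 with RIG-I agonist. The log2 fold change was 0.68 ± 0.08 in CT26 (adjusted p = 3.39e-05) and 0.62 ± 0.04 in MC38 (adjusted p = 6.02e-12). In E0771 it was 0.87 ± 0.14 with an adjusted p of 0.0657 by edgeR, and it was called there by DESeq2 (adjusted p = 1.62e-05), without the filter on low counts (0.0275) and with the spread shared by all 14 libraries (0.000108). The tables count whole genes, so the long and short protein forms of ZAP, which come from 1 gene, cannot be told apart. Parp12 counts per Zc3hav1 count were between 0.26 and 0.767 in the 7 control libraries and between 1.39 and 1.59 in the 7 RIG-I libraries, with no overlap.

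Parp3, a mono-ADP-ribosyltransferase of DNA-break repair, rose in CT26 from 20.2, 22.5 and 20.5 CPM to 40.7, 41.7 and 41.5 CPM, by 0.97 ± 0.07 (log2 fold change ± SE, edgeR adjusted p = 7.26e-08). In E0771 the controls held 63.9 and 52.8 CPM and the RIG-I libraries 93.3 and 95.8 CPM, a change of 0.70 ± 0.15 that was not called (adjusted p = 0.153). MC38 rose from 78.0 and 67.8 CPM to 87.1 and 85.4 CPM, by 0.24 ± 0.06 (adjusted p = 0.00379). The groups were separate in each line, and the MC38 call was lost without control replicate 2 (adjusted p = 0.0833) and with the spread shared by all libraries (0.172). DESeq2 called the E0771 change (adjusted p = 0.0237). Rrp9, a neighbour on the opposite strand named for its overlap with Parp3 after its values were seen, rose by 0.25 in CT26 (adjusted p = 0.00763) and by 0.47 in MC38 (adjusted p = 1.91e-07). In E0771 Rrp9 was not called, at 102 and 89.7 CPM with control agonist and 152 and 132 CPM with RIG-I agonist.

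Parp8, a mono-ADP-ribosyltransferase with few assigned functions, had low levels. The CT26 controls were at 19.2, 15.9 and 18.0 CPM and the RIG-I libraries at 24.5, 23.0 and 24.5 CPM. E0771 gave 15.6 and 28.9 CPM against 36.3 and 48.4 CPM, and MC38 gave 14.5 and 13.8 CPM against 19.7 and 19.2 CPM. The groups were separate in each line, and the 2 E0771 controls were far apart. The change was 0.44 ± 0.08 in CT26 (adjusted p = 0.000609), 0.46 ± 0.10 in MC38 (adjusted p = 0.000804) and 0.93 ± 0.33 in E0771 (adjusted p = 0.424, not called). With the spread shared by 14 libraries the calls in CT26 (adjusted p = 0.115) and MC38 (0.289) were lost and the one in E0771 (0.0165) was gained.

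Parp1 and Parp2, the housekeeping relatives, were higher in no line by the test. Parp1 was at 198.6, 178.0 and 164.4 CPM in the CT26 controls and at 145.7, 149.8 and 153.6 CPM with RIG-I agonist. In E0771 its level was 251.4 and 211.4 CPM against 196.7 and 176.1 CPM, and in MC38 452.2 and 473.3 CPM against 427.5 and 416.3 CPM. Each RIG-I library was below each control library of its line. Parp1 fell by 0.27 ± 0.06 on the log2 scale in CT26 (adjusted p = 0.00461) and by 0.13 ± 0.03 in MC38 (adjusted p = 0.00462), and the difference in E0771 was -0.31 ± 0.15 (adjusted p = 0.573). The MC38 call was lost without control replicate 2 (adjusted p = 0.105) and with the spread shared by 14 libraries (0.541).

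Parp2 stayed between 34.8 and 49.9 CPM in all 14 libraries. Its log2 change was 0.07 ± 0.06 in CT26 (adjusted p = 0.386), 0.01 ± 0.13 in E0771 (adjusted p = 0.994) and -0.11 ± 0.07 in MC38 (adjusted p = 0.243). In E0771 the control libraries, at 41.8 and 43.4 CPM, lay between the RIG-I libraries at 40.5 and 45.1 CPM, the one overlap of groups among the 10 members. Counted without regard to a test, 9 members were wholly higher and 1 wholly lower in CT26, where the groups of 52.2% of all genes tested did not overlap, 21.9% higher and 30.3% lower. The counts were 8 and 1 in E0771, with 40.4% of all genes, 19.7% higher and 20.7% lower, and 8 and 2 in MC38, with 67.3%, 33.9% higher and 33.4% lower. The members were counted in CPM scaled within each line, and all genes in CPM scaled over all 14 libraries. These counts and shares are therefore not directly comparable. Parp2 was counted as higher in CT26 with its nearest libraries at 47.99 CPM (control) and 48.44 CPM (RIG-I).

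The order of the members by level per length changed with the agonist. Levels are given here as CPM per kb of the union of a gene's exons, and the first place was the same with the longest transcript as length. Parp1 stood first in each control group, with a mean of 34.1 ± 3.26 (SD, n = 3) in CT26, 43.7 ± 5.35 (n = 2) in E0771 and 87.4 ± 2.81 (n = 2) in MC38. Parp12 stood first in each RIG-I group, at 100.6 ± 0.61, 130.7 ± 0.26 and 133.3 ± 0.997. Parp8 was last in every group except the E0771 controls, where Parp14 was last at 1.72 ± 0.62 with Parp8 just above it at 2.51 ± 1.06, a difference within their spread. With the longest transcript as length, Parp8 was number 8 in the E0771 controls at 6.48 ± 2.73. Dtx3l at 4.91 ± 0.58 and Parp14 at 2.155 ± 0.78 were then below it. In the CT26 controls, Parp3, Parp14 and Dtx3l had 5.70 ± 0.34, 5.57 ± 0.29 and 5.26 ± 0.62 and were not separated by their spread. In MC38 with RIG-I agonist, Parp9 at 80.5 ± 1.17 and Parp1 at 79.7 ± 1.504 overlapped likewise.

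Of the summed CPM per kb of the 10 genes, Parp1 made up 22% in the CT26 controls and 8.05% in the RIG-I libraries, 31.9% and 8.49% in E0771 and 28.9% and 15.1% in MC38. The share of Parp12 went from 18.4% to 28.6% in CT26, from 10.5% to 31.4% in E0771 and from 15.4% to 25.3% in MC38. Parp14 went from 3.61% to 7.88%, from 1.24% to 7.75% and from 5.91% to 8.58%. Zc3hav1 took a smaller share with RIG-I agonist in each line although its level was higher, at 16.6% and 11.7% in CT26, 21.1% and 12.8% in E0771 and 12.4% and 10.9% in MC38. A share falls when the other members rise, so these values describe make-up and not change of a gene. In CPM not divided by length, the members summed to 790 ± 46.3 with control agonist and 1795 ± 26.1 with RIG-I agonist in CT26, and to 705 ± 77.0 and 2131 ± 100.4 in E0771. The MC38 sums were 1594 ± 8.485 with control agonist and 2784 ± 31.82 with RIG-I agonist.

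**Figure D3:**
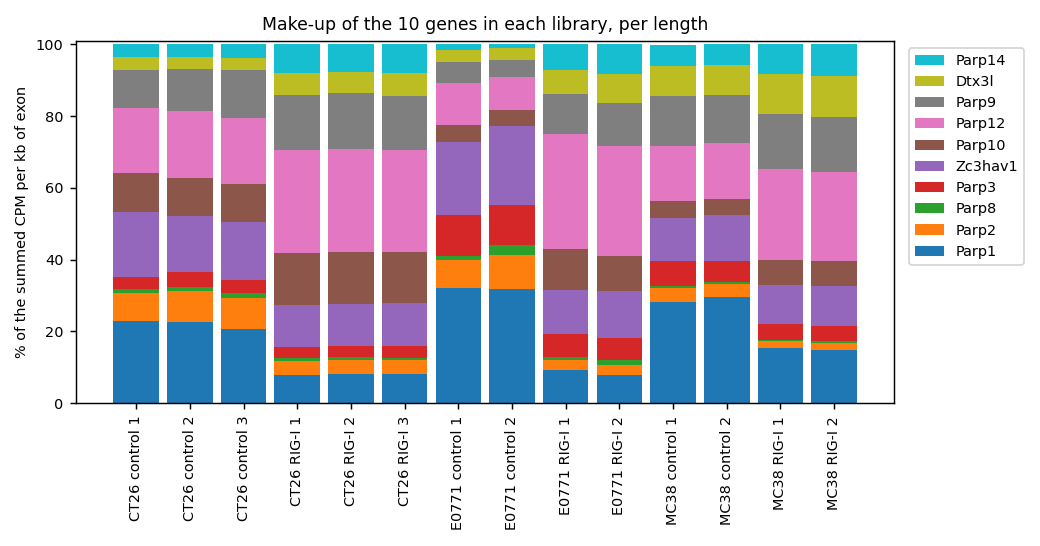
Share of each of the 10 genes in their summed CPM per kb of exon, in percent, with 1 stacked bar per library. Parp1 at the base shrinks and Parp12 widens from the control to the RIG-I libraries of each line, to shares of 8.05% and 28.6% in CT26.

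Whether the agonist changed a gene unequally in 2 lines was tested as an interaction in 1 edgeR fit of all 14 libraries. That fit shares its spread between the lines, so the wider replicate spread of E0771 may be understated in these comparisons. For Parp14 the standard error of the E0771 change in the fit of that line alone was 0.30, larger than that of its difference from MC38 below. E0771 had larger rises than MC38 for 5 members: the difference of log2 fold changes was 2.88 ± 0.23 for Parp14 (adjusted p = 2.07e-05), 1.75 ± 0.20 for Parp9 (adjusted p = 0.000294), 1.64 ± 0.18 for Parp12 (adjusted p = 0.000189), 1.49 ± 0.18 for Dtx3l (adjusted p = 0.000493) and 1.46 ± 0.14 for Parp10 (adjusted p = 8.72e-05). Of all genes tested, 2.11% differed between these lines and 1.81% were higher in E0771. The other 5 members did not pass, with Parp3 at 0.44 ± 0.14 (adjusted p = 0.149) and Zc3hav1 at 0.24 ± 0.15 (adjusted p = 0.555).

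CT26 had smaller rises than E0771 for the same 5 genes, with 3.88% of all genes called and 2.81% lower in CT26. The CT26 change minus the E0771 change was -1.96 ± 0.21 for Parp14 (adjusted p = 0.000228), -1.39 ± 0.16 for Parp12 (0.00035), -1.26 ± 0.13 for Parp10 (0.000148) and -1.20 ± 0.18 for Parp9 (0.00221). For Dtx3l it was -0.74 ± 0.17 (adjusted p = 0.0259), and that call was lost without CT26 control replicate 1 (0.0543), CT26 RIG-I replicate 1 (0.0693) or 2 (0.0732), E0771 control replicate 2 (0.0886) or E0771 RIG-I replicate 2 (0.0532), and in a fit of these lines alone (0.116). The 2 comparisons share the E0771 libraries, so they are not independent.

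Between CT26 and MC38, 3 members differed: the rise was larger in CT26 by 0.92 ± 0.20 for Parp14 (adjusted p = 0.0233), 0.74 ± 0.16 for Dtx3l (adjusted p = 0.0222) and 0.68 ± 0.12 for Parp3 (adjusted p = 0.0101). Of all genes, 3.8% were called and 1.98% were higher in CT26. The count fell to 0 without MC38 control replicate 1, MC38 RIG-I replicate 1 or MC38 RIG-I replicate 2, where edgeR gave 4 members at an unadjusted p under 0.05 each time, and to 1 without CT26 control replicate 2, CT26 RIG-I replicate 3 or MC38 control replicate 2. A fit of these lines alone, added after the data were seen, called 5, with Parp9 (adjusted p = 0.00131) and Parp12 (adjusted p = 0.0496) besides the 3. DESeq2 on all libraries called 4. Over all genes the fit of these lines alone called 2536 of 15642 and DESeq2 975 of 14657. The edgeR fit of all 14 libraries called 557 of 14657.

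The lines also differed with control agonist, in the same fit. E0771 had less Parp14 than MC38 by 3.39 ± 0.18 on the log2 scale (adjusted p = 4.17e-09), or 10.5-fold, less Parp9 by 2.51 ± 0.15 (adjusted p = 1.03e-08) and less Dtx3l by 2.48 ± 0.14 (adjusted p = 4.8e-09). Over the 10 members, 8 were lower and 1 was higher in E0771 than in MC38, where 64.1% of all genes were called. Of all genes, 32.6% were lower and 31.5% higher there. CT26 against MC38 gave 7 lower and 2 higher, with 73.6% of all genes called, 35.8% lower and 37.8% higher. CT26 against E0771 gave 6 higher and 2 lower, with 70.3% called, 37.2% higher and 33.1% lower. E0771 and MC38 both come from C57BL/6 mice, and their labels carry 1 common run-like prefix, so between them line and culture medium cannot be told apart. CT26 differs from both in mouse strain and in lacking that prefix, and from MC38 also in medium, none of which can be told apart from the line.

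The spread of the 3 lines was smaller with RIG-I agonist for the 5 genes that rose in each. The mean of the highest line divided by that of the lowest was 10.4 with control agonist and 1.64 with RIG-I agonist for Parp14, 5.65 and 1.67 for Parp9, 5.53 and 2.76 for Dtx3l, 3.21 and 1.33 for Parp12, and 2.69 and 1.4 for Parp10. Zc3hav1, at 1.46 and 1.4, and Parp1, at 2.57 and 2.82, had about the same ratio with either agonist. Parp3 also had a smaller ratio with RIG-I agonist, at 3.46 and 2.29. For Parp8 it was 1.58 and 2.18, and for Parp2 1.17 and 1.33. In E0771, control replicate 1 was above control replicate 2 for each of these 5 genes. These ratios of group means describe the 3 lines, with CPM scaled within each line, and were not tested.

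**Figure D4:**
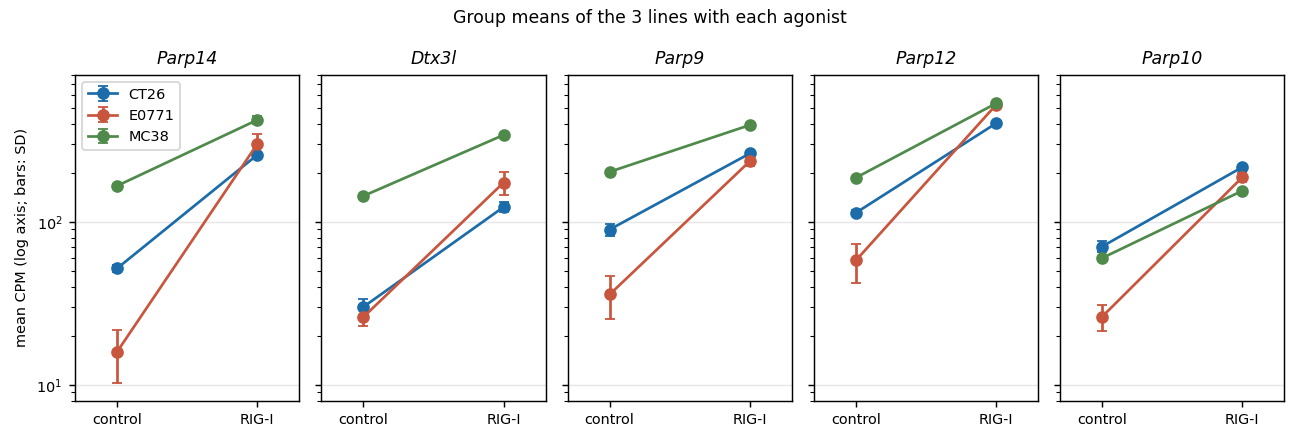
Group means of Parp14, Dtx3l, Parp9, Parp12 and Parp10 with control and RIG-I agonist, in CPM on a log axis, with 1 colour per line and bars for the SD over 3 or 2 libraries. The 3 lines lie farther apart on the left than on the right, with ratios of 10.4 and 1.64 for Parp14.

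Genes around the members were examined to see how far the rise extended along the chromosome. The 3 nearest protein-coding genes on each side of each member or adjacent run made 48 genes, of which 32, 31 and 33 were tested in CT26, E0771 and MC38. Of these, 5 were higher and 6 lower in CT26, 0 were called in E0771 and 5 were higher and 8 lower in MC38. Over all genes tested, 19.8% were higher and 18.6% lower in CT26, 1.53% and 0.0256% in E0771, and 18.9% and 16.9% in MC38. In E0771, 5 of the neighbours had an unadjusted p under 0.05 by edgeR and DESeq2 called 0. With edgeR and RLE size factors, 1238 of 11728 genes had an unadjusted p under 0.05 in E0771. Hspbap1 and Kpna1, which flank Parp14, Dtx3l and Parp9 and were named for that position, had changes of 0.20 (adjusted p = 0.0458) and -0.05 (adjusted p = 0.569) in CT26. In MC38 their changes were -0.02 (adjusted p = 0.888) and 0.02 (adjusted p = 0.664), and in E0771 -0.11 (0.859) and 0.01 (0.994). The one tested neighbour called past 1 on the log2 scale was Ccnb1ip1, which codes for a ubiquitin ligase of meiosis and starts 109 bases from Parp2 in the opposite direction. In MC38 it fell from 12.7 and 9.13 CPM to 1.95 and 1.79 CPM, by 2.56 ± 0.21 on the log2 scale (adjusted p = 3.96e-09). In CT26 its libraries ranged from 3.16 to 7.34 CPM with control agonist and 2.45 to 6.75 CPM with RIG-I agonist, with a change of -0.18 ± 0.57 (adjusted p = 0.837).

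**Figure D5:**
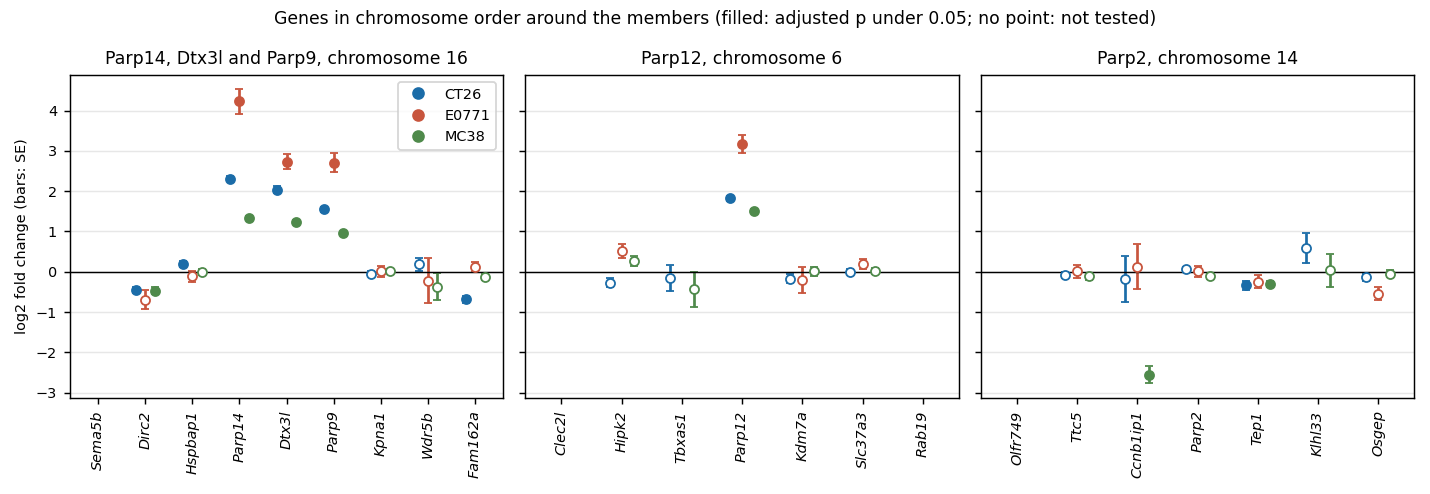
Log2 fold change with RIG-I agonist of the genes in chromosome order around Parp14, Dtx3l and Parp9, around Parp12 and around Parp2, with bars for the standard error and filled points for an adjusted p under 0.05. The 3 members on chromosome 16 stand at 0.95 or more in each line between neighbours that lie near or below 0, and Ccnb1ip1 next to Parp2 is at -2.56 in MC38.

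Of 7 other PARP family genes, all tested in each line, 2 were higher and 1 lower in CT26, 1 was higher in E0771, and 4 were higher and 1 lower in MC38. The shares of all genes called were 38.4%, 1.56% and 35.8% in these lines. Parp11, a mono-ADP-ribosyltransferase that is not among the 10, moved like the strongest of them. Its libraries were at 36.0, 41.5 and 41.8 CPM in the CT26 controls and at 149, 151 and 153 CPM with RIG-I agonist. E0771 gave 21.0 and 21.8 CPM against 118 and 163 CPM, and MC38 24.7 and 25.3 CPM against 87.9 and 91.6 CPM. No groups overlapped, and the log2 fold change was 1.92 ± 0.07 (adjusted p = 2.6e-11), 2.72 ± 0.20 (adjusted p = 0.00761) and 1.85 ± 0.06 (adjusted p = 5.42e-16). Changes of the other named relatives were below 0.3 on the log2 scale: Tiparp, an aryl hydrocarbon receptor target, rose by 0.27 in CT26 and 0.26 in MC38, Parp4, the vault enzyme, rose by 0.23 in MC38, and the tankyrase Tnks2 fell by 0.24 in MC38. Over the list the median change was 0.03 (CT26), 0.15 (E0771) and 0.12 (MC38).

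Cofactors and relatives of ZAP were 8 genes, of which 5 were higher and 1 lower in CT26, 1 was higher in E0771, and 3 were higher and 2 lower in MC38, with medians of 0.25, 0.17 and 0.10. Calls over all genes tested made up 38.4%, 1.56% and 35.8% in the same order. Trim25, the ubiquitin ligase that ZAP needs for its antiviral action, rose in each line, by 1.005 ± 0.069 in CT26 (adjusted p = 7.67e-08), 1.23 ± 0.15 in E0771 (adjusted p = 0.0326) and 0.65 ± 0.03 in MC38 (adjusted p = 2.41e-12). N4bp1, an endoribonuclease, rose by 0.63 in CT26 and 0.82 in MC38. Rnf135, a ubiquitin ligase that acts on RIG-I itself, rose by 0.95 in CT26. Neither was called in E0771, where N4bp1 was at 72.0 and 65.4 CPM against 117 and 118 CPM with RIG-I agonist. Rnf135 was there at 6.53 and 8.13 CPM against 11.4 and 12.2 CPM. At an unadjusted p under 0.05 edgeR gave 3 of the 8 genes as higher in E0771, and DESeq2 called 2. Over all 11728 genes DESeq2 called 418 there, and edgeR with RLE size factors gave 1238 at an unadjusted p under 0.05. Zc3hav1l, a paralogue next to Zc3hav1, fell by 0.38 in CT26 and by 0.28 in MC38.

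The hydrolases and readers of ADP-ribose were 12 genes, with 10, 9 and 10 tested. For these and the Deltex genes below, the background was 38.4%, 1.56% and 35.8% of all genes tested in CT26, E0771 and MC38. In CT26 1 was higher and 2 were lower, and in MC38 2 were higher and 0 lower, by edgeR and at an unadjusted p also 0 lower. In E0771 0 were called by edgeR or DESeq2, and 0 had an unadjusted p under 0.05. Parg, which degrades ADP-ribose chains, rose by 0.19 in CT26 and 0.24 in MC38, Rnf146, a ligase that recognises the chains, rose by 0.44 in MC38, and the remodeller Chd1l and the hydrolase Adprh fell by 0.38 and 0.21 in CT26. Of the 4 other Deltex genes, 3 were tested: 2 were higher in CT26, 1 was lower in MC38, and in E0771 edgeR called 0, DESeq2 0 and an unadjusted p under 0.05 gave 0. Dtx2 rose by 0.56 in CT26 and Dtx3 fell by 0.28 in MC38.

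Among 12 partners of Parp1 in DNA repair, all tested in each line, 2 were higher and 1 lower in CT26, 0 were called in E0771 and 1 was higher and 1 lower in MC38, with medians of 0.02, -0.05 and 0.03. In E0771 edgeR at an unadjusted p under 0.05 and DESeq2 also gave 0. For these and the NAD genes below, the background in CT26, E0771 and MC38 was 38.4%, 1.56% and 35.8% of all genes tested. Xrcc5, the Ku80 subunit of end joining, fell by 0.51 ± 0.07 in CT26 (adjusted p = 8.83e-05) and by 0.27 ± 0.07 in MC38 (adjusted p = 0.00470). Polb and Apex1, of base excision repair, rose by 0.24 and 0.23 in CT26, and the ligase Lig3 rose by 0.18 in MC38. Of 17 genes of NAD synthesis and use, 13, 14 and 11 were tested, with 5 higher and 2 lower in CT26, 0 called in E0771, and 1 higher and 1 lower in MC38. In E0771 1 gene had an unadjusted p under 0.05 by edgeR and DESeq2 called 1. Over all 11728 genes DESeq2 called 418 there, and edgeR with RLE size factors gave 1238 at an unadjusted p under 0.05. Nampt, the rate-limiting enzyme of NAD salvage, rose by 0.38 ± 0.06 in CT26 (adjusted p = 0.000279) and by 0.51 ± 0.04 in MC38 (adjusted p = 6.52e-10), and its change in E0771 was 0.80 ± 0.18 (adjusted p = 0.196). Sirt1, an NAD-dependent deacetylase, rose by 0.45 in CT26, and Nnmt, a nicotinamide methyltransferase, fell by 0.71 there. Cd38, an NAD glycohydrolase, fell by 1.78 ± 0.26 in MC38, from 5.46 and 4.99 CPM to 1.95 and 1.21 CPM (adjusted p = 1.61e-05).

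To describe which genes ran most like Parp9, Dtx3l and Parp14, log2 group means of 14657 genes were centred per gene over the 6 groups and compared by root-mean-square difference, where 0 is an equal pattern. Nearest to Parp9 were Helz2 at 0.0981, Irf1 at 0.121 and Lgals3bp at 0.184. Dtx3l had Tap1 at 0.0911, Cnksr1 at 0.311 and Rnf213 at 0.335. For Parp14 they were Ifi211 at 0.283, Psmb10 at 0.33 and Cd274 at 0.387. Each of these 9 genes was closer to its member than any of the other 9 members was: Parp9 and Parp12 differed by 0.384, Parp9 and Dtx3l by 0.474, and Parp9 and Parp14 by 0.526. Tap1 had means of 64.6, 50.2 and 290 CPM in the CT26, E0771 and MC38 controls and 260, 381 and 782 CPM with RIG-I agonist. The 6 points are group means of the same libraries, Ifi211 belongs to a family of similar copies among which reads may be divided, and the measure is a description with no test.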

How the data were processed

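Estimated counts per gene were deposited by the authors as 3 tables, 1 per line. Salmon, DESeq2 and GRCm38 are named in the submitters' processing notes, without roles or versions. Annotation and use of strand in counting are not given in the sources used here. The estimated counts were rounded to whole numbers before testing, and between 69.1% and 85.3% of values per library were already whole. Of 34866 identifiers, 34582 matched GENCODE M21 without version.

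Within each line the agonists were compared by edgeR's quasi-likelihood test (edgeR 4.0.16, R 4.3.3, TMM scaling, robust, filterByExpr at a minimum count of 10, Benjamini-Hochberg adjustment over all genes tested, threshold 0.05). Differences between lines came from 1 fit of 14 libraries in 6 groups. CPM is scaled within each line. A change is a log2 fold change with its standard error, and the scripts were tested on simulated counts. Replicate numbers come from the sample titles, and no pair of replicates agreed within sampling noise. Alternatives were DESeq2 1.42.0, RLE size factors, no filter, replicate block, shared spread and leaving out each library. Totals of 12347361 to 40564102 counts per library set the precision, and the 10 members were all above 10 CPM in each library.

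The members and lists were chosen with earlier results of these data known. All 10 members are named. Of each related list at most 4 genes called in at least 1 line, with the largest change among those with a mean log2 CPM from 1 up, are named. Of the neighbours those called past 1 on the log2 scale are named, and of alike genes the nearest 3.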

Additional observations from a re-analysis of the deposited data

Results flagged for a closer look

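In 13 tests the rise of a member with RIG-I agonist differed between 2 lines by the interaction test of edgeR over all 14 libraries, given here as differences of log2 fold changes. E0771 minus MC38 was 2.88 for Parp14, 1.75 for Parp9, 1.64 for Parp12, 1.49 for Dtx3l and 1.46 for Parp10. CT26 minus E0771 was -1.96 for Parp14, -1.39 for Parp12, -1.26 for Parp10, -1.2 for Parp9 and -0.742 for Dtx3l. CT26 minus MC38 was 0.92 for Parp14, 0.744 for Dtx3l and 0.678 for Parp3. The comparisons share libraries and a spread taken over all 3 lines, and their backgrounds were 2.11%, 3.88% and 3.8% of all genes tested. For the 5 genes that differed between E0771 and both other lines, the E0771 controls had the lowest mean of the 3 lines. Between E0771 and MC38, which share strain and run-like label prefix, line and culture medium cannot be told apart. In the comparisons with CT26, strain and label prefix, and for MC38 also medium, cannot be told apart from the line.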

How the results depend on the processing

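E0771 and MC38 had 2 libraries per agonist, and the replicate spread was widest in E0771. Counts cover whole genes, and replicates may be technical. Of the members called, Parp14, Dtx3l, Parp9, Parp12 and Parp10 passed in every line under RLE size factors, DESeq2, no filter on low counts, the shared spread and each left-out library. The replicate numbers were not taken as pairing: same-numbered libraries had correlated deviations of 0.104, 0.0979 and 0.274 in CT26, 0.619 in E0771 and -0.0186 in MC38, and in CT26 control 1 correlated best with RIG-I 2 at 0.132. With a replicate block, E0771 gave 8 members called in place of 5, 7 higher and 1 lower. Parp14 was lost (adjusted p = 0.0759), Zc3hav1, Parp3 and Parp8 were gained as higher (adjusted p = 2.58e-06, 0.000111 and 0.000117) and Parp1 as lower (0.00894). The block gave 16 related genes of 83 tested in E0771 in place of 2 and left 9 members called in CT26 and in MC38. Over all genes the block called 2458 of 11728 in E0771, where the fit without it called 183. In CT26 the block called 5307 of 13893 genes and in MC38 4926 of 12387. Between CT26 and MC38 it lost the effect difference of Parp14 (adjusted p = 0.083), leaving 2 of 3 members, and gained the control difference of Parp8 (0.00146). It gained the effect differences of Parp8 for CT26 minus E0771 (0.0133) and of Parp3 for E0771 minus MC38 (0.0389), and changed no other member's call. With the spread shared by 14 libraries, 8 members and 9 related genes were called in E0771, 20 related genes in CT26 in place of 34, and 13 in MC38 in place of 29. Of 14657 genes tested, that fit called 1588 in E0771, 3503 in CT26 and 998 in MC38. The fits of each line alone called 183 of 11728, 5334 of 13893 and 4437 of 12387. DESeq2 called 4 related genes in E0771 and 18 in MC38, with 418 of 11728 and 2256 of 12387 called over all genes. Leaving out 1 library gave 21 to 38 related genes in CT26, with 21 without RIG-I replicate 1 or without RIG-I replicate 2, and 1 to 2 in E0771, with 1 without control replicate 2 or without RIG-I replicate 2. The members whose effect differed between CT26 and MC38 numbered 0 to 4 when 1 library was left out and 5 in a fit of these lines alone, an alternative added after the data were seen. Over all genes the fit of CT26 and MC38 alone called 2536 of 15642, and the edgeR fit of all 14 libraries 557 of 14657. The cause of these shifts was not tested. Some differences that missed the threshold changed sign. With 1 library left out, Parp2 in E0771 ranged from -0.0724 to 0.0846, the CT26 minus E0771 effect from -0.13 to 0.12 for Parp1 and -0.0508 to 0.12 for Parp2, the CT26 minus MC38 effect of Zc3hav1 from -0.0557 to 0.12, and the CT26 minus E0771 control difference from -0.16 to 0.0137 for Zc3hav1 and -0.59 to 0.30 for Parp8. In the fit of CT26 and MC38 alone, the effect difference of Zc3hav1 was -0.02 (-0.0242). Other scalings moved the median of all genes by less than 0.1 on the log2 scale.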
